A study of Drosophila melanogaster with 12 samples.

Results

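Heads of the fly line BG02514 were compared with heads of the line BG02257, both of Drosophila melanogaster, on 8 of the 12 arrays of the series. Each line had 4 arrays, 2 from females and 2 from males, and the comparison covered all 13966 probe sets that are not controls, of which 8380 were bright enough to be tested. Both lines come from a gene disruption collection whose strains carry P{GT1}, a transposon built to trap the gene into which it inserts. The insertion sites were not stated in the sources used here, and differences between the lines elsewhere in the genome were not tested. The remaining 4 arrays came from Canton S B, a wild-type strain, and are set beside the lines as a description. Flies of all 3 lines were reared together at 25 °C and 70% humidity with 12 h of light, and every sample pooled the heads of 100 flies aged 5 to 7 days. The 2 BG02257 male arrays are both labelled replicate 1 and appear here as male 1a and male 1b. Nothing in the labels says that the samples were separate cultures, so p-values measure the spread between these samples, which may in part be technical.

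In its title the study concerns the neighbouring genes Tre1 and Gr5a of the X chromosome. Tre1 is a G protein-coupled receptor that guides migrating germ cells, and Gr5a is a taste receptor for the sugar trehalose. A fly head holds the compound eyes, brain, antennae, mouthparts and a layer of fat body, so its RNA mixes photoreceptor, neuronal, glial, chemosensory and fat body transcripts. In such bulk samples, fewer cells of a type and less RNA per cell cannot be told apart. Head transcripts were present on every array. Of 35 phototransduction genes listed, 24 were on the array and all 24 were tested, with a summed Signal of 177003 to 189684 in BG02514 and 187443 to 211864 in BG02257. By contrast, 6 of 26 ovary and egg genes on the array and 6 of 34 genes of testis and accessory gland passed the brightness filter. Signal is a relative fluorescence intensity, and the arrays had already been scaled to a like mean.

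In all, 44 of 8380 probe sets differed between BG02514 and BG02257 at an adjusted p under 0.05 (limma, 0.525% of those tested), and these are the differences called here. Of them, 25 were higher in BG02514 (0.298% of tested probe sets) and 19 were lower (0.227%). At an unadjusted level of 0.05 there were 996, where 419 would be expected with no difference. At 3 of the 44, Ten-a, Cyp4g1 and Acat2, the mean of 1 line was under the brightness filter. The called probe sets stood for 35 named genes, and 8 had no single gene name. Differences of called probe sets ran from 0.55 to 2.94 on the log2 scale among those higher in BG02514 and from −1.77 to −0.61 among those lower. Over all probe sets tested, the median difference was −0.01 and the central 95% lay between −0.60 and 0.73. The 4 arrays of BG02514 and the 4 of BG02257 did not overlap at 42 of the 44, the exceptions being CG34227 and l(1)G0320, against 5.69% of all tested probe sets. Since the calls were made from these same arrays, this describes the called probe sets and does not test them. The count of calls rested on several libraries. It was 19, 15, 17 and 15 without BG02514 female 1, female 2, male 1 and male 2 and 20 without BG02257 female 2, and it was 58 without BG02257 male 1a and 43 without male 1b. At 13 probe sets the call held in each of the 8 fits that left out 1 array, and 10 of these were named: CG7607, MFS10, CG32523, CG11899, Dph1, Psa, CG3566, CG34227, Ctr9 and udd. Among the calls nearest to the threshold, those of Acat2 and l(1)G0320 were lost in all 8 of these fits and those of Ten-a, Nrx-IV, Npc2g, Tep4 and Obp56h in 7. The 10 named genes whose calls held in all 8 each lost the call in 1 to 3 of 10 other settings, CG7607 in 1.

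**Figure D1:**
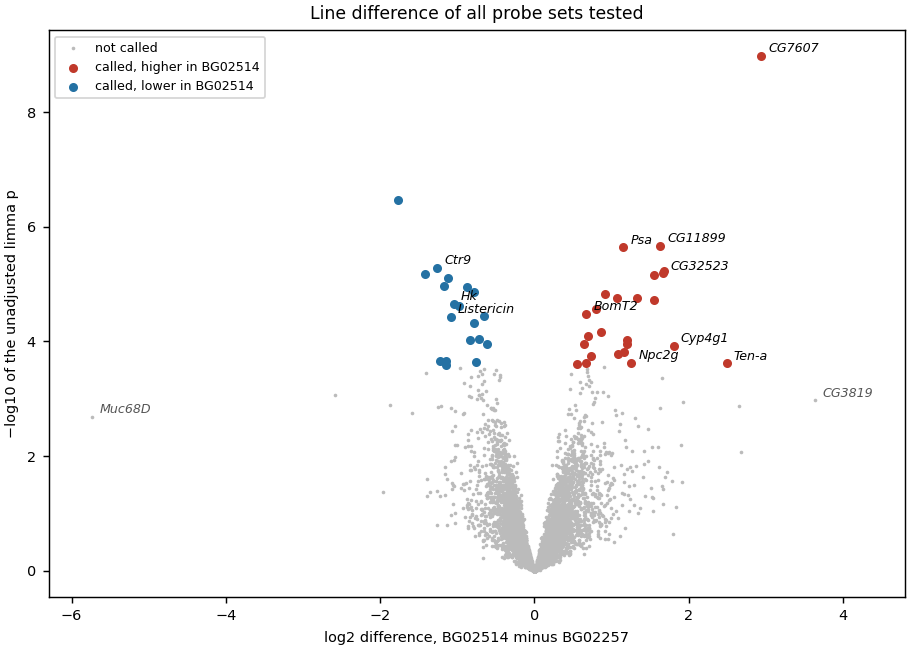
Log2 difference of each tested probe set (BG02514 minus BG02257, horizontal axis) against −log10 of the unadjusted limma p (vertical axis). Red and blue points are the 25 higher and 19 lower called probe sets, grey points those not called. CG7607 stands alone at the top with a difference of 2.94, and Muc68D, at −5.74, was not called and has BG02514 Signals of 4.10 to 24.0, at the bottom of the scale, so that its size is uncertain.

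CG7607 had the smallest p of all probe sets tested. Its Signal was 1854 and 2025 in BG02514 females and 1528 and 1412 in BG02514 males, against 279 and 219 in BG02257 females and 221 and 174 in BG02257 males. Every BG02514 array was far above every BG02257 array, in both sexes, and the 4 Canton S B arrays (370.0 to 1070.2) lay between them. The log2 difference was 2.94 ± 0.14 (SE, adjusted p = 8.85e-06). Where 4 values of a line are given, the females come before the males. MFS10, a transporter of the major facilitator superfamily, had 459, 572, 416 and 514 in BG02514 against 129, 194, 127 and 169.9 in BG02257. The groups did not overlap, and Canton S B, at 158 to 243, was close to BG02257. MFS10 differed by 1.68 ± 0.19 (adjusted p = 0.00651). CG14567 was also higher in BG02514, at 1153 to 2248 against 694 to 911 in BG02257, a difference of 1.20 ± 0.20 (adjusted p = 0.0295). Among genes lower in BG02514, CG34227 had 2104 and 2508 in BG02514 females and 6036 and 6191 in BG02514 males, against 6038 and 6167 in BG02257 females and 9712 and 14060.3 in BG02257 males. Males were above females in both lines, so the lines overlapped across sexes, while within each sex BG02514 was lower. The difference was −1.17 ± 0.15 (adjusted p = 0.00775). CG3566 (−1.13 ± 0.14, adjusted p = 0.00665) and CG6409 (−0.71 ± 0.11, adjusted p = 0.0273) were lower in BG02514 too, with no overlap of the 4 and 4 arrays. Of the 8 called probe sets without a single gene name, 3 were higher and 5 lower in BG02514, and the one with the smallest p differed by −1.77 ± 0.15 (adjusted p = 0.00141).

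**Figure D2:**
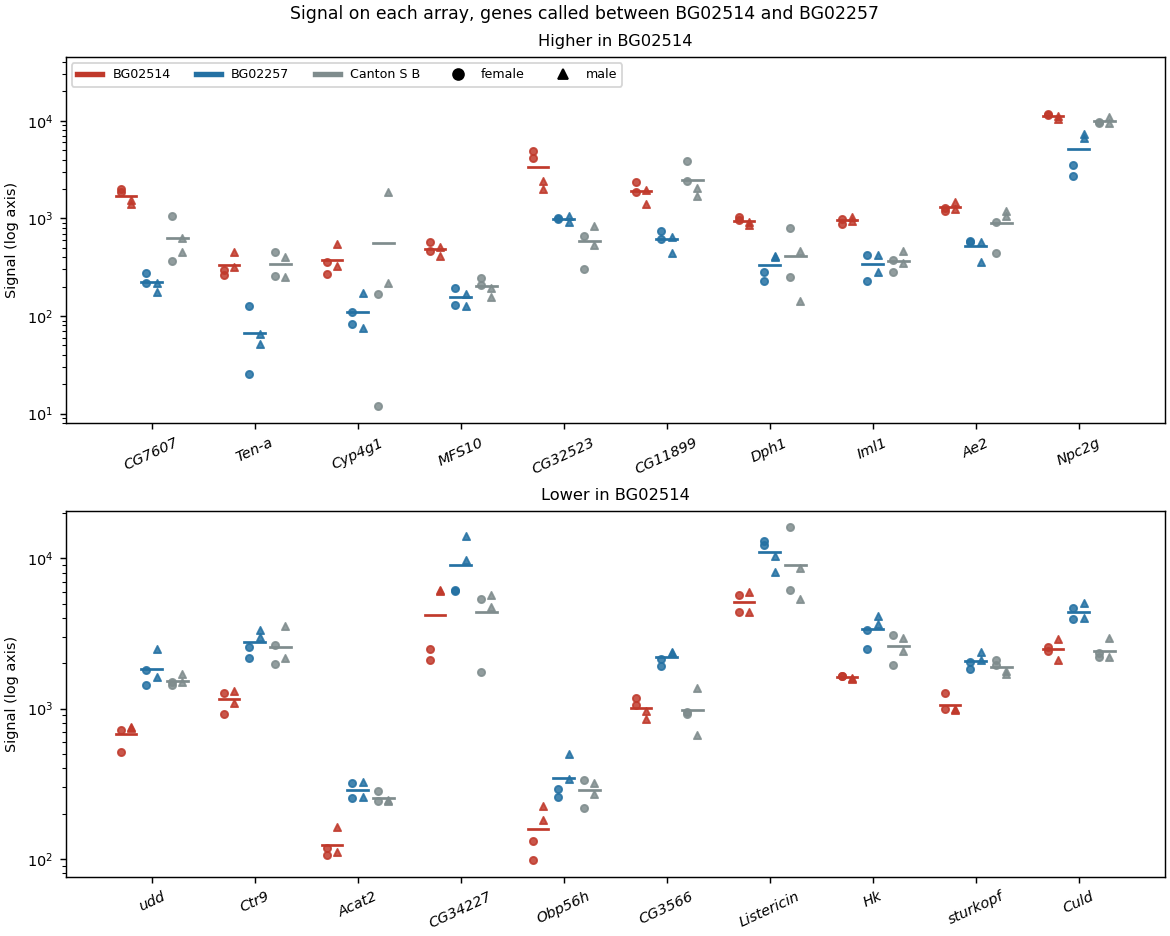
Signal on each array (log axis) for the 10 genes with the largest called difference in each direction, higher in BG02514 above and lower in BG02514 below. For each gene BG02514 (red), BG02257 (blue) and Canton S B (grey) stand from left to right, circles are females, triangles are males, and bars are means of 4 arrays. CG7607 lies at 1412 to 2025 in BG02514 and 174 to 279 in BG02257, while Cyp4g1 in Canton S B spreads over 12.0 to 1849.6.

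CG11899, Npc2g and Cyp4g1 were called higher in BG02514, and Acat2 and sturkopf lower. CG11899, the phosphoserine aminotransferase of serine synthesis, had 1881, 2356, 1398 and 1945 in BG02514 against 749.9, 609, 653 and 447 in BG02257. All BG02514 arrays were above all BG02257 arrays, and Canton S B (1687 to 3877) was at the level of BG02514 or above. The difference was 1.63 ± 0.17 (adjusted p = 0.00474). Gene lists were read at the brightest probe set of each gene, at which 33 of 6761 genes (0.488%) were called. Over all 6761 genes, 3092 lay above 0 and the median was −0.02. Of 17 tested genes of serine synthesis and one-carbon metabolism, CG11899 was the 1 called, 13 were above 0 and the median was 0.31. The list's mean level varied between replicates by an SD of 0.30, about as much as that median. The folate enzymes Mthfs (0.60), Nmdmc (0.59) and pug (0.55) and the serine hydroxymethyltransferase Shmt (0.50) were among those above 0 that did not pass, and Cbs, which makes cystathionine, was at −0.84. Npc2g, a secreted lipid-binding protein of the NPC2 family, had 11667, 11461, 10398 and 11202 in BG02514 against 2740.3 and 3529 in BG02257 females and 7384 and 6709.6 in BG02257 males. BG02257 females were the lowest arrays, and Canton S B (9415 to 10911) was close to BG02514. Npc2g differed by 1.26 ± 0.23 (adjusted p = 0.0472), and the other 4 tested members of its family lay between −0.21 and −0.08.

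Cyp4g1, the cytochrome P450 that completes the synthesis of cuticular hydrocarbons in oenocytes, had 269, 361, 328 and 549 in BG02514 against 109, 83.0, 75.7 and 172 in BG02257. The lines did not overlap, but the Canton S B arrays spanned both (169, 12.0, 1849.6 and 221). The difference was 1.80 ± 0.30 (adjusted p = 0.0303), and Cyp4g1 was the 1 called of 51 tested P450 genes, whose median was 0.03. In BG02257 its mean Signal of 110 was under the 128.2 that the brightness filter asked of a probe set's mean over all 12 arrays, so the size of the difference is uncertain there. Mgstl, a microsomal glutathione S-transferase, was called at 1 of its 3 tested probe sets (0.92 ± 0.12, adjusted p = 0.00894), and its brighter probe set gave 0.19 and the remaining one 0.26. None of 30 glutathione S-transferase genes was called at its brightest probe set, 22 of them lay below 0 and the median was −0.15. Acat2, an acetyl-CoA acetyltransferase, had 118, 106, 110.4 and 163 in BG02514 against 255, 318, 327 and 259 in BG02257. The lipid droplet protein gene sturkopf had 1267, 993, 995 and 982 in BG02514 against 2029, 1835, 2363 and 2108 in BG02257. Neither gene overlapped between the lines, and Canton S B stood near BG02257 for both. The BG02514 mean of Acat2, 124, was under the brightness filter too. Acat2 differed by −1.23 ± 0.22 (adjusted p = 0.0472) and sturkopf by −0.98 ± 0.13 (adjusted p = 0.0105), the 1 called of 22 tested fat body and lipid genes, of which 17 lay above 0 with a median of 0.11. The anion exchanger gene Ae2 was higher (1.33 ± 0.17, adjusted p = 0.00904) and the sodium-phosphate transporter gene NaPi-III lower in BG02514 (−0.66 ± 0.09, adjusted p = 0.0134).

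Iml1, Dph1 and Psa were called higher in BG02514, and udd and Ctr9 were called lower. Iml1, a subunit of the GATOR1 complex that restrains the TORC1 kinase when amino acids are scarce, had 869.8, 989, 946 and 1023 in BG02514 against 228, 423, 281 and 422 in BG02257. The BG02514 arrays were tightly grouped and all above BG02257, and Canton S B (279.9 to 462) was at the level of BG02257. The difference was 1.55 ± 0.21 (adjusted p = 0.00949). Its partners in the complex, Nprl2 (−0.19) and Nprl3 (−0.17), were not called, nor was any other of the 32 tested genes of sugar metabolism and insulin signalling, whose median was 0.04. Dph1, which starts the diphthamide modification of elongation factor eEF2, had 1026, 973, 862 and 916 in BG02514 against 226, 285, 404 and 408 in BG02257. BG02514 was above BG02257 throughout, more so in females, and the difference was 1.55 ± 0.18 (adjusted p = 0.00651). Psa, a puromycin-sensitive aminopeptidase, was higher by 1.15 ± 0.12 (adjusted p = 0.00474), with 804 to 949 in BG02514 against 354 to 445 in BG02257. Lower in BG02514 were udd, needed for ribosomal RNA transcription by RNA polymerase I, and Ctr9, a subunit of the Paf1 complex that travels with RNA polymerase II. The Signal of udd was 715, 510.5, 751 and 741 in BG02514 against 1797, 1446, 2490.3 and 1629 in BG02257, and that of Ctr9 was 1278, 919.6, 1319 and 1083 in BG02514 against 2167, 2578, 2986 and 3340.2 in BG02257. Canton S B was close to BG02257 for both genes, at 1427 to 1688 and 1983 to 3519. The differences were −1.42 ± 0.17 for udd (adjusted p = 0.00651) and −1.26 ± 0.14 for Ctr9 (adjusted p = 0.00651). None of 27 cytosolic ribosomal protein genes was called, and their median was 0.02.

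Ten-a and Nrx-IV were called higher in BG02514, and Hk was called lower. Ten-a, a teneurin that matches synaptic partners, had 262, 293, 457 and 319.7 in BG02514 against 25.7, 127, 52.3 and 65.7 in BG02257. The arrays did not overlap, and Canton S B (252 to 458) had Signals like those of BG02514. The difference of 2.49 ± 0.45 (adjusted p = 0.0472) was that of 1 of 6 tested probe sets of Ten-a, and the other 5 gave 0.04 to 0.68 and were not called. All 4 BG02257 Signals of the called one were under 128.2, the mean brightness a probe set needed to be tested, so it was tested through the arrays where it was high and the size of its difference is uncertain. Hk, the Hyperkinetic beta subunit of Shaker potassium channels, had 1657, 1654, 1594 and 1574 in BG02514 against 2481, 3348, 3661 and 4111 in BG02257. All 4 BG02514 arrays were nearly equal and below BG02257, for a difference of −1.05 ± 0.14 (adjusted p = 0.0103), while a dimmer probe set of Hk gave 0.20 and was not called. Nrx-IV, a septate junction protein of glia and epithelia, was higher in BG02514 (0.73 ± 0.13, adjusted p = 0.0424) and the 1 called of 22 glial markers, with 561 to 629 in BG02514 and 321 to 375 in BG02257. None of 22 neuronal and synaptic markers was called (median 0.12), nor of 22 neuropeptide genes (median 0.05), in which Crz, encoding corazonin, was at −0.64 and Pdf, the transmitter of clock neurons, at −0.47.

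The photoreceptor gene Culd had 2434, 2553, 2095 and 2885 in BG02514 against 3940.3, 4649, 4026 and 5079 in BG02257. Each BG02514 array was below each BG02257 array (difference −0.83 ± 0.13, adjusted p = 0.0273), and Canton S B (2209 to 2939.8) was at the level of BG02514. None of 24 phototransduction genes was called, with 12 on either side of 0 and a median of 0.00. The channel gene trpl (−0.56 ± 0.13, adjusted p = 0.114) and the scaffold gene inaD (−0.44 ± 0.11, adjusted p = 0.159) had the smallest p of this list. Earlier results of these arrays set a line apart from Canton S B at chp, se, inaD, teq, CG32523, CG11899, Npc2g and Iml1. Of these, the photoreceptor adhesion gene chp (0.06), the red eye pigment gene se (−0.25) and inaD were not called between the lines, and the others were. None of 16 eye pigment genes was called. Os-C, which encodes an olfactory-specific secreted protein, was lower in BG02514 heads at 4660.0, 3926, 4809.8 and 4326, against 6059.9, 7257, 8283 and 9162 in BG02257 (−0.78 ± 0.12, adjusted p = 0.0168). Obp56h, an odorant-binding protein, had 132, 98.3, 224 and 181 in BG02514 against 290.0, 259, 499 and 339.6 in BG02257 (−1.15 ± 0.20, adjusted p = 0.0472). Neither gene overlapped between the lines, and Canton S B stood between their means. Obp56h was the 1 called of 23 tested odorant-binding protein genes, of which 19 lay below 0 with a median of −0.27. Over all 6761 tested genes, 3092 lay above 0 and the median was −0.02. Obp56a (−0.92), Obp19c (−0.63), Obp19d (−0.50) and Obp83b (−0.45) were the next lowest and did not pass. Of the 4 members above 0, Obp99c was the highest (0.53, adjusted p = 0.110) and did not pass either. In the list of odorant receptors and other chemosensory proteins, 7 of 8 tested members lay below 0 (median −0.15), and none was called.

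The gene teq was called higher in BG02514, and Listericin and Tep4 were called lower. The teq gene encodes a multidomain serine protease known for a role in long-term memory and was called at 2 of its 3 tested probe sets. At the brighter one it was 3214, 4136, 3763 and 4456 in BG02514 against 1781, 1848, 2227 and 2789 in BG02257. On this probe set BG02514 was above BG02257 and both were above Canton S B, which had 684, 1205, 1025 and 1356. The differences were 0.86 ± 0.13 (adjusted p = 0.0229) and 1.16 ± 0.20 (adjusted p = 0.0373). The third probe set gave −0.48 ± 0.11 (adjusted p = 0.103), in the other direction. There Canton S B was highest, at 3309 to 3577, against 1455 to 1587 in BG02514 and 1933 to 2303 in BG02257. Whether teq was above or below Canton S B thus depended on the probe set. Listericin, a secreted antibacterial protein, had 5685, 4411, 4410.3 and 5992 in BG02514 against 12201, 13106, 10333 and 8119.7 in BG02257. The lines did not overlap, and Canton S B ranged over both (5388 to 16074). Listericin differed by −1.08 ± 0.16 (adjusted p = 0.0134), and the complement-like thioester protein gene Tep4, also lower in BG02514, by −0.61 ± 0.10 (adjusted p = 0.0295). Of 22 tested genes of peptidoglycan recognition and immune signalling, teq and Tep4 were the 2 called, 15 lay below 0 and the median was −0.20. None of the 11 tested members of the immune effector list was called, and the list holds neither Listericin nor BomT2, both called. BomS2 was nearest (0.89 ± 0.19, adjusted p = 0.0831), and the list's median of 0.38 was 0.05 without BG02257 female 2 and 0.07 without BG02514 female 1. A further 5 genes were called higher that lie outside the naming rule, and they are given here after their values were seen. They were the Toll-induced peptide gene BomT2 (0.67 ± 0.10), the clotting gene fon (0.64 ± 0.11), the cytokine gene Gbp3 (0.69 ± 0.11), l(1)G0320 (0.66 ± 0.12) and CG10680 (0.80 ± 0.11). Their adjusted p ran from 0.0112 for CG10680 to 0.0472 for l(1)G0320.

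CG32523 and CG11842 were higher in BG02514 as well. CG32523 had 4128 and 4901 in BG02514 females and 2010.0 and 2414 in BG02514 males, against 980.3, 1017, 913 and 1053 in BG02257. BG02514 females were highest, BG02514 males next, and Canton S B (300.4 to 837) was below both lines. CG32523 differed by 1.67 ± 0.20 (adjusted p = 0.00651) and CG11842, of the trypsin-like serine protease family, by 1.07 ± 0.14 (adjusted p = 0.00904).

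**Figure D3:**
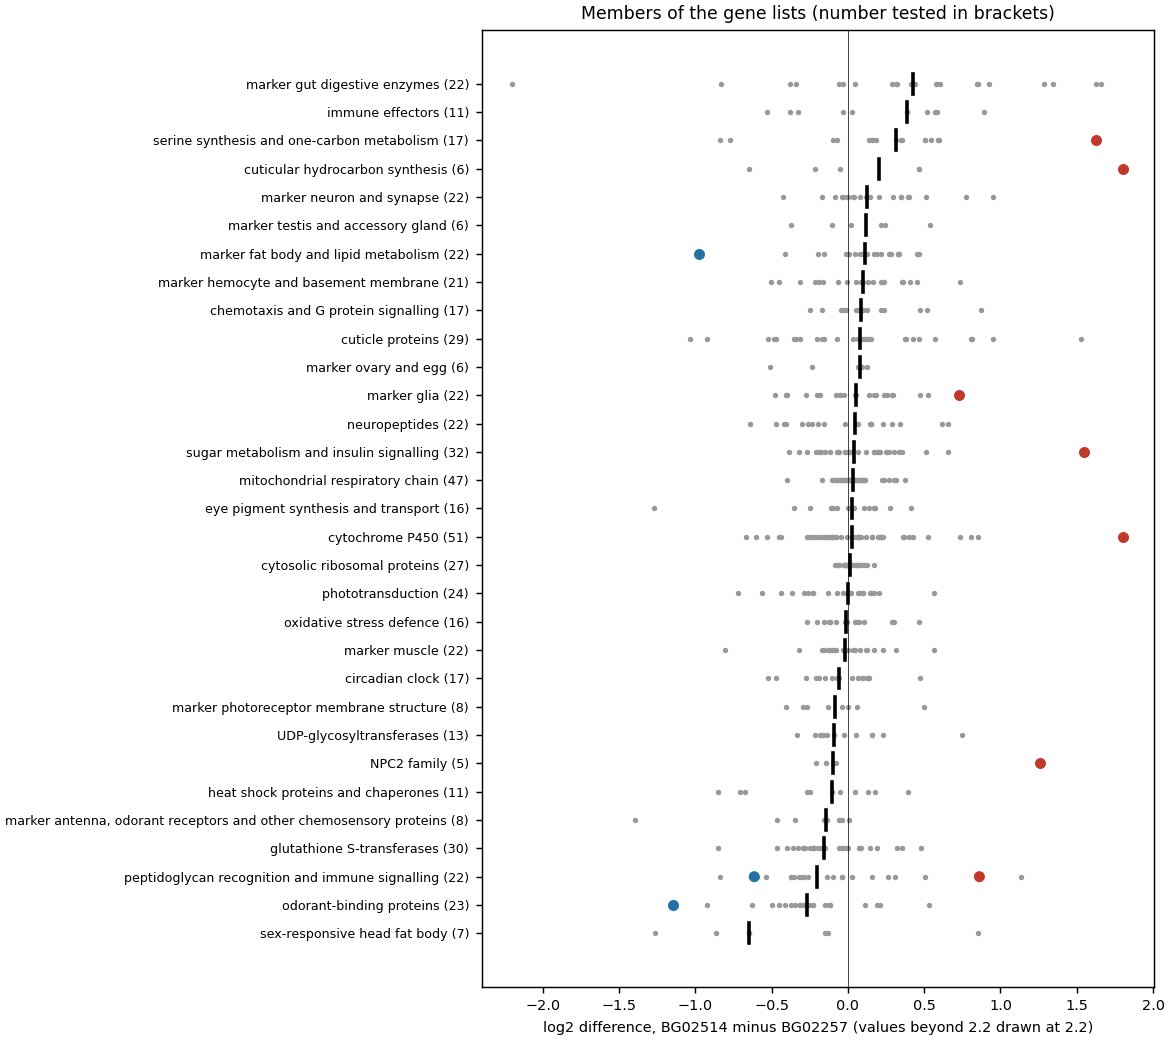
Log2 difference (BG02514 minus BG02257, horizontal axis) of every tested member of the 31 gene lists, each gene at its brightest probe set, with lists ordered by their median (black bar). Red and blue points are called members, higher and lower in BG02514, and grey points were not called. No list holds more than 2 called members. Values beyond 2.2, such as Muc68D at −5.74, are drawn at the edge.

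The other lists held no called gene. They were those of photoreceptor membrane structure, the circadian clock, chemotaxis and G protein signalling, the sex-responsive head fat body, UDP-glycosyltransferases, oxidative stress defence, chaperones, the respiratory chain, cuticle proteins, muscle, hemocytes, gut, ovary, and testis with accessory gland. The sex-responsive head fat body list had the median farthest from 0, at −0.65 (−0.03 in females, −0.92 in males), with 6 of 7 tested members below 0. Its mean level varied between replicates by an SD of 0.68, about as much as that median. Its member sxe2 came near the threshold (−0.65 ± 0.12, adjusted p = 0.0524). The gut digestive enzymes stood out by their spread. Of 22 tested members 16 lay above 0, with a median of 0.42 and a range of −5.74 to 1.66. Their summed Signal was 9920 to 14660 in BG02514 and 6349 to 13966 in BG02257, and 5456 to 13851 in Canton S B. BG02257 male 1b and Canton S B female 2 had the lowest sums in their lines, and the part of this tissue in other differences was not tested. Muc68D, a mucin gene of this list, had 9.70, 24.0, 4.10 and 17.7 in BG02514 against 3204, 2483, 1653 and 10.4 in BG02257, with male 1b at the level of BG02514. In Canton S B it had 1491, 2.50, 1134 and 2799, so it was near the bottom of the scale on 1 array there too, and the difference of −5.74 ± 1.40 did not pass (adjusted p = 0.138). Another 3 named genes, singled out after their values were seen, had uncalled differences over 2. They were CG3819 (3.64 ± 0.80, adjusted p = 0.096), CG13924 (2.68 ± 0.82, adjusted p = 0.254) and Sid (2.65 ± 0.61, adjusted p = 0.111), each with at least 1 BG02257 array under a Signal of 25.

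The mean of Canton S B was nearer to BG02257 at 28 of the 44 called probe sets (63.6%, against 55.9% of all tested), of which 15 were higher and 13 lower in BG02514, and nearer to BG02514 at 16 (36.4%, against 44.1%), of which 10 were higher and 6 lower. It lay between the 2 lines at 34 (77.3%, against 39.2%). The called probe sets were selected for a clear gap between the lines, and the mean of another line falls within a wide gap more often. The excess over all tested probe sets thus follows at least in part from the selection, and no conclusion is drawn from it. At Iml1, Psa, MFS10, udd, Ctr9 and sturkopf it was BG02514 that stood away from the other lines, and at CG11899, Npc2g, Culd, CG3566 and CG14567 it was BG02257. These are descriptions of means over 4 arrays, with no test.

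The line difference had the same sign in females and males at all 44 called probe sets, and at all 44 the arrays of the lines did not overlap in either sex, against 11.2% of all tested probe sets. Since the call used both sexes together, this describes the members and does not test them. Within females alone, 7 of 8380 probe sets were called (0.0835%), those of CG7607, CG32523, Npc2g, Dph1, CG34227, CG14567 and 1 without a name. Within males alone, CG7607 was the 1 called (0.0119%). Npc2g differed by 1.89 in females and 0.62 in males, CG32523 by 2.17 in females and 1.17 in males, and Dph1 by 1.98 in females and 1.13 in males. In the limma test of whether the line difference depended on sex, 0 of 8380 probe sets were called, with 321 at an unadjusted level of 0.05. Arrays that did not overlap in either sex, in opposite directions, were found at 3.84% of tested probe sets and at none of the 44. Without BG02257 male 1a the calls were 7 and without male 1b they were 10. BG02257 male 1a had raised yolk protein Signals, with 6747 for Yp1 against 172 to 387 in BG02514 males and 302 in BG02257 male 1b, and their part in the line differences was not tested.

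**Figure D4:**
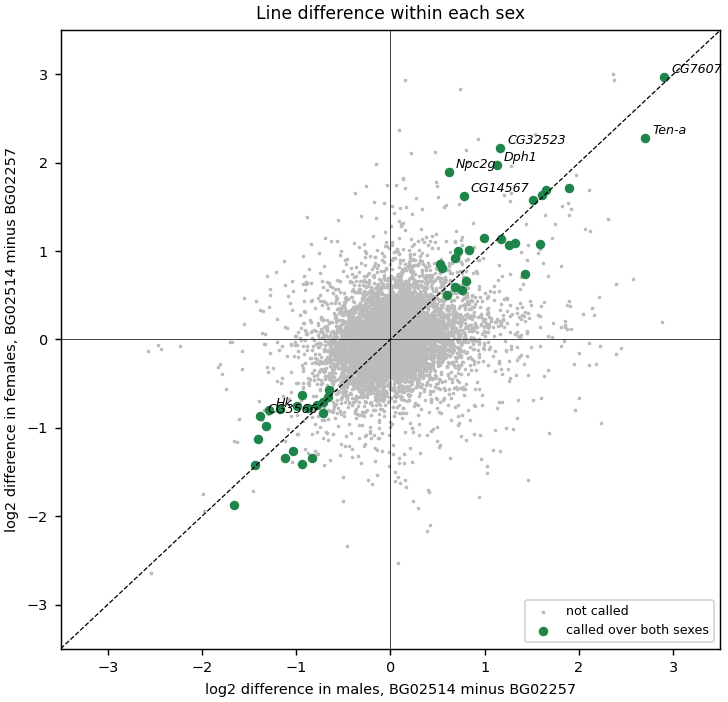
Log2 difference between BG02514 and BG02257 in females (vertical axis) against that in males (horizontal axis) for each tested probe set. Green points are the 44 called over both sexes, each with the same sign in both sexes, and the dashed line marks equal differences. Npc2g lies above the line, at 1.89 in females and 0.62 in males.

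The places of called genes on the chromosomes were read from gene order in the RefSeq assembly Release 6 plus ISO1 MT. Arm 3L held 14 of the 35 called genes and 19.0% of the 6761 genes tested, and 1.09% of its tested genes were called, against 0.518% over all arms. The X held 8, arms 2R and 3R 5 each, 2L 3 and the fourth chromosome 0. Of the called genes, 7 (20.0%) had another called gene within 10 places, as did 3.82% of all tested genes. On 3L, Acat2 (−1.23 ± 0.22), Ctr9 (−1.26 ± 0.14) and sturkopf (−0.98 ± 0.13) were neighbours, all lower in BG02514, with 1 uncalled gene, Nt5a (−0.43), among them. Farther along 3L, Psa and Iml1, both higher in BG02514, had 1 tested gene between them, cue, at 0.13. On 2R, Listericin and CG34227, both lower in BG02514, lay 4 places apart with 1 tested gene between them, CG13226, at −0.22 and not called. The Canton S B mean was nearer to BG02257 at Listericin and nearer to BG02514 at CG34227. Next to CG7607, nkt was at 1.18 ± 0.33 and was not called (adjusted p = 0.215), and Plod on the other side was at 0.16. No test of position was made, and genes that lie together are not independent.

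**Figure D5:**
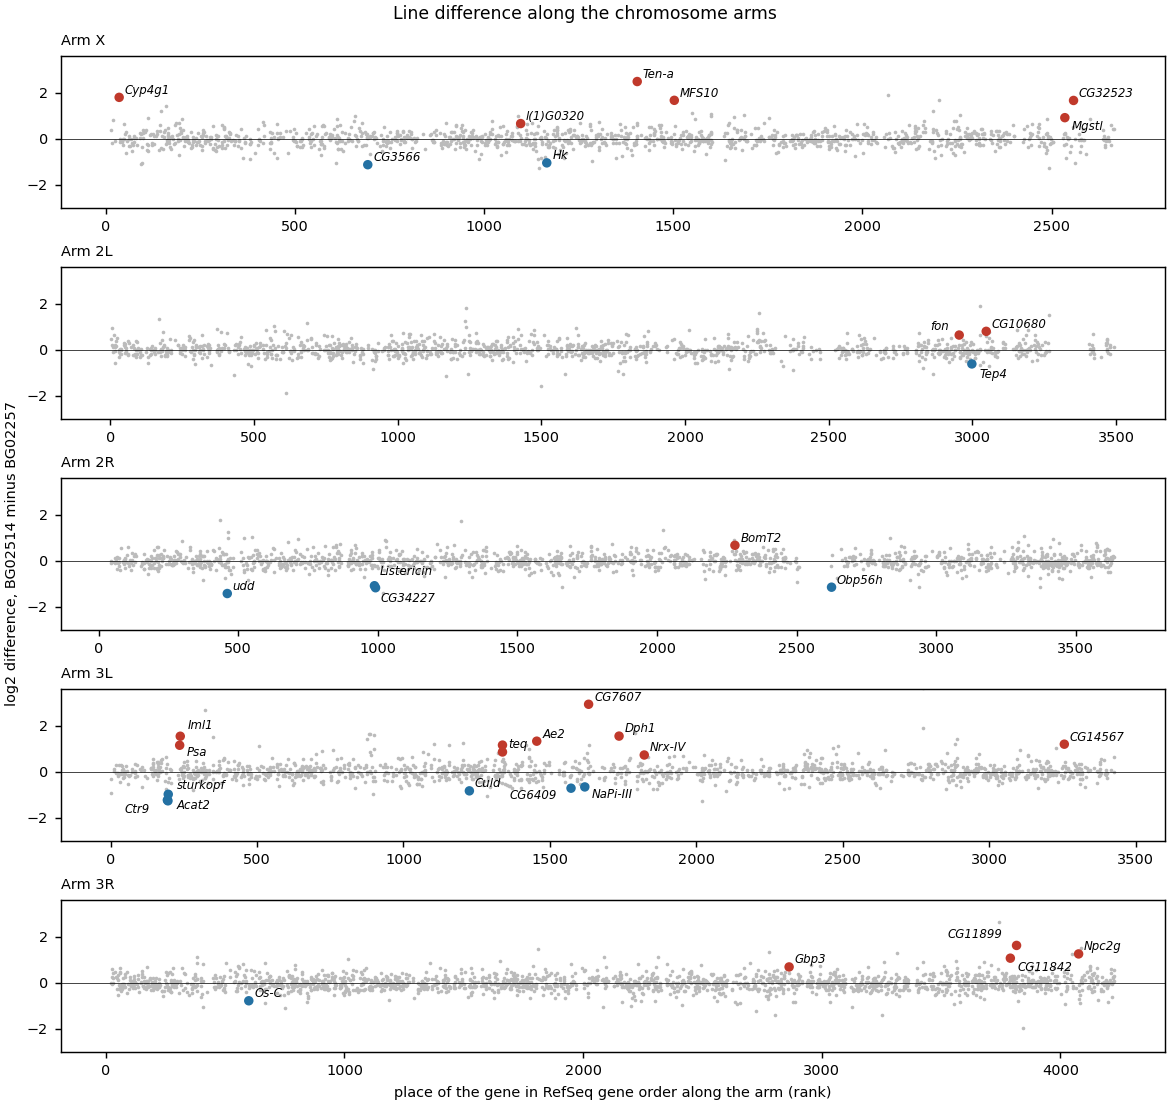
Log2 difference (BG02514 minus BG02257, vertical axis) of each tested probe set by the rank of its gene along chromosome arms X, 2L, 2R, 3L and 3R. Red and blue points are called probe sets, higher and lower in BG02514. The 3L panel holds 14 of the 35 called genes, among them the group of Acat2, Ctr9 and sturkopf and the pair of Psa and Iml1.

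The region in the title of the series showed no called difference. Neither Tre1 nor Gr5a was tested. Of the nearest tested genes, 5 on either side, none was called. AdamTS-B, a secreted metalloprotease of the ADAMTS family, came closest, with a mean Signal of 379 in BG02514 against 752 in BG02257 and 775 in Canton S B, a difference of −1.03 ± 0.24 (adjusted p = 0.121). The other 9, among them the membrane traffic gene Rab18 (0.09), the mitochondrial sirtuin gene Sirt4 (0.03) and the proton channel genes OtopLa (−0.07) and OtopLc (0.17), lay between −0.13 and 0.44.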

How the data were processed

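RNA from fly heads was hybridised to Affymetrix arrays, 1 per sample. The authors made the deposited intensities, called Signal, in Affymetrix Microarray Suite 5.0, according to the labels, and the submitters' processing notes list GCOS too. Background settings and detection calls were not stated in the sources used here. All 12 arrays had a trimmed mean of about 500.1 (2% left out at each end), so the authors had scaled them. Such scaling assumes a like overall Signal and hides a shift shared by most transcripts.

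Each array was brought to the same trimmed mean and Signal was log2-transformed without adding a pseudocount. The test took in probe sets whose mean Signal over 12 arrays reached 128.2, the 40th percentile. The line difference, BG02514 minus BG02257, was estimated by limma 3.58.1 (lmFit, then eBayes with a variance trend) under R 4.3.3, with line and sex as terms on 8 arrays. Residual degrees of freedom were 5, prior ones 5.08, and tests were two-sided, with Benjamini-Hochberg adjustment over 8380 probe sets at 0.05. Every adjusted p is from this test unless the interaction test is named. Dependence on sex was tested in a model of the 4 group means. That model also gave the calls within females and within males, each with its own Benjamini-Hochberg adjustment. On simulated arrays with 8380 probe sets, the fit of this comparison found 71% of probe sets changed by 1 on the log2 scale and 97% of those changed by 2, and made 7 false calls. There, 100 probe sets were changed by 1 and 100 by 2, with independent normal noise at limma's spreads and no sex effect. With the 44 calls of the real arrays the adjustment is stricter, so these shares may overstate what was found there.

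A platform annotation gave 1 symbol for 12443 probe sets, several for 327 and none for 1196, and 12394 matched a current RefSeq record (assembly Release 6 plus ISO1 MT, used for names, arms and gene order, as no build is named in the deposited table). The text names up to 15 called genes per direction by size whose arrays do not overlap within either sex, called list members or else up to 2 members with the smallest p, other probe sets of named genes, and tested neighbours of Tre1 and Gr5a. Other uncalled genes in the text, such as Mthfs, Cbs, Nprl2 and Obp56a, lie outside this rule and were named with their values known. The comparison, the 31 gene lists and the naming rule were chosen with earlier results of these data known. Replicate numbers gave no sign of pairing: same-numbered arrays of different groups deviated together with r of −0.12 to 0.04. The BG02257 males were left out of this check, as both carry the same number, and it does not exclude pairing. A fit with a replicate block is among the alternatives. Replicates correlated at rho of 0.942 to 0.964 across probe sets, and arrays of other groups at a median of 0.942 to 0.955. The lowest replicate rho, 0.942, was that of the BG02257 males, whose medians with other groups were 0.942 (male 1a) and 0.947 (male 1b). BG02514 male 2, Canton S B male 2 and both Canton S B females also had a replicate rho under that median. As a sign of RNA integrity, control probe sets were read at their 3' and 5' ends, and the ratio gave an exact permutation p of 0.371 (actin), 0.171 (GAPDH) and 0.4 (eIF-4a) between the lines. The ratio was 1.56 to 3.22 in BG02514 and 2.36 to 2.86 in BG02257 for actin. In the same order, it was 3.89 to 4.87 and 4.14 to 4.98 for GAPDH, and 1.96 to 3.02 and 2.16 to 2.91 for eIF-4a. The p-values compare the lines and do not show that the RNA was intact. Alternatives were 8 fits that leave out 1 array and 10 other settings. The number of arrays limits the precision.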

Additional observations from a re-analysis of the deposited data

Results flagged for a closer look

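RpL28, a protein of the large ribosomal subunit, was the 1 named gene whose lines separated in opposite directions in the 2 sexes. Its Signal was 13248 and 14622 in BG02514 females against 10617 and 9842 in BG02257 females, and 9404 and 8268 in BG02514 males against 9450.1 and 9543 in BG02257 males. The line difference was 0.45 in females and −0.11 in males on the log2 scale, a difference between them of 0.552 that did not pass the limma interaction test (adjusted p = 0.993). A separation in opposite directions was seen at 3.84% of all tested probe sets. With 2 arrays per group, no single array was tested as lying apart from its group.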

How the results depend on the processing

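The count of 44 calls was 33 with no brightness filter (13966 tested, 0.236%), 53 with a filter at the 60th percentile, 52 with quantile normalization (26 higher, 26 lower), 45 with a pseudocount of 16, 37 with an interaction term and 48 with the BG02257 males averaged. It was 28 with all 12 arrays in the model (0.334%), 17 without the variance trend, and 2 with the two-way model of the labels and no sharing of spread between probe sets; of these, 26, 15 and 1 were among the 44. With the replicate block it was 26 (13 higher, 13 lower). Leaving out 1 array gave 15 to 58 calls. The interaction count of 0 was 1 with the BG02257 males averaged and 0 to 10 with 1 array left out. Of 1790 single values under the alternatives, none that was called in either setting changed sign, 1470 kept their side of the threshold, 308 called values no longer passed and 12 uncalled ones did. Of 558 list medians, 15 moved by more than the replicate spread. Causes were not tested. Dim probe sets limit precision, and those under the filter were not tested outside the fit with no filter.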
